A study of Mus musculus with 61 samples.

Results

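Sox2 was found by chromatin immunoprecipitation at 294 sites that all 3 deposited position lists held and that lay within 1 kb of a listed gene start, of 25432 Sox2 sites in all. The members were chosen by position. The binding positions of the Chaf1a.166, Chaf1a.2122 and Renilla lists were pooled, neighbours within 200 bp were joined into a site, and a site was kept when each list held it and at least 1 position was at most 1 kb from a start site of the deposited Sono-seq table. The 294 sites are 2.67% of the 11004 sites shared by the lists, and they lie at 326 of the 5513 listed start sites (5.91%) and 308 of the 5154 listed genes (5.98%). These counts follow from the rule and are a description. With positions of an enrichment lower bound of at least 2 alone, 134 sites at 147 promoters were left.

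The cells were mouse embryonic fibroblasts from E13.5 embryos of strain Black6-129X1/SvJ with genotype Col1a1::tetOP-OKSM ; R26-M2rtTA. At day 3 they carried a knockdown of Chaf1a by hairpin 166 or 2122, or of Renilla luciferase as the control. Every group carries the same inducible cassette for Oct4, Klf4, Sox2 and Myc and received doxycycline at 2 ug/ml in serum and LIF medium with ascorbate, so Sox2 is supplied by the transgene in knockdown and control cells alike. Each list comes from 1 immunoprecipitate made with a goat polyclonal Sox2 antibody and 1 input of the same hairpin, and Sono-seq from 3 libraries labelled CAF-1 knockdown and 3 labelled Renilla, deposited as 1 value per condition and region. No list or value therefore has a replicate, and no test between conditions is given. The other 49 of the 61 samples were not analysed here, so neither the knockdown of Chaf1a nor the cell type was checked by expression.

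Sox2 is an HMG-box factor that binds the minor groove of a short AT-rich element and bends the DNA. It often pairs with the POU factor Oct4, whose octamer element lies directly beside the Sox element in enhancers of pluripotent cells. Chaf1a is the largest subunit of CAF-1, the chaperone that deposits histones on newly replicated DNA. Most Sox2 sites in these lists lie more than 1 kb from the starts of the Sono-seq table, which holds only a subset of mouse gene starts.

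Letters under the strongest sites are shown first, because the best-ranked of them carried the paired element. Each stretch holds 40 bases on either side of the middle Sox2 position, is read 5′ to 3′ on the gene's strand and ends before the start site. The letters and coordinates are from RefSeq promoter windows of build GRCm38.p6, into which the offset to the mm9 start was carried over, so a start that differs between the annotations shifts the stretch by as many bases. Capitals mark, on either strand, the Sox core ACAATG, its variant ACAAAG, a further Sox core written AACAAT, the octamer of POU factors with the letters ATGCAAAT, and the composite of a Sox element directly before the octamer. The 9 best-ranked sites with such a match within 30 bp of the Sox2 position follow, among genes with a single window.
Nrarp (chr2:25180664-25180744, plus strand): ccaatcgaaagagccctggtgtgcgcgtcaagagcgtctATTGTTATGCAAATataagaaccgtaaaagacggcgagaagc
Pipox (chr11:77894021-77894101, minus strand): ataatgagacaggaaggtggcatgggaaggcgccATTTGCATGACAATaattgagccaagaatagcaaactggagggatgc
Mobp (chr9:120149522-120149602, plus strand): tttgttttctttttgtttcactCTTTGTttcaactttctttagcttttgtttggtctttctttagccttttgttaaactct
Tek (chr4:94739165-94739245, plus strand): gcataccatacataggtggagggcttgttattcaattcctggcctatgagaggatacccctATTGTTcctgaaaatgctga
Pde12 (chr14:26669852-26669932, minus strand): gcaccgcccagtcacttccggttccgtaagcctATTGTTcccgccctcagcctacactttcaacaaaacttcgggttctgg
Zfp428 (chr7:24506939-24507019, plus strand): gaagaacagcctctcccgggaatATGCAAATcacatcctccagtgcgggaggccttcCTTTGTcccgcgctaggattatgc
Cyth2 (chr7:45814425-45814505, minus strand): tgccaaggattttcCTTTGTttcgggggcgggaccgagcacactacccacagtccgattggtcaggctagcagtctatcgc
C2cd3 (chr7:100372097-100372177, plus strand): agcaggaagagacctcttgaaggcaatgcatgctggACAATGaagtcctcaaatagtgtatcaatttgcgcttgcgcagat
Psmd8 (chr7:29180705-29180785, minus strand): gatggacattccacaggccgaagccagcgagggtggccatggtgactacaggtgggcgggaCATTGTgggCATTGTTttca
Of 67 stretches that fitted into a window before the start, the best-ranked with no Sox core or octamer anywhere were those of Trappc6a and Armcx1. Mbtps2 was next and is not printed.
Trappc6a (chr7:19508536-19508616, plus strand): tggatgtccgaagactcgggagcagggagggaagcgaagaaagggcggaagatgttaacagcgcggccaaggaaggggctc
Armcx1 (chrX:134717720-134717800, plus strand): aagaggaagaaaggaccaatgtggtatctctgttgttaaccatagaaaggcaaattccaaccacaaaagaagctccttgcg
The composite, which is ATTGT, then 1 free base, then the octamer, was searched for only after it was seen in these stretches. Among 22862 genes with a single RefSeq window it occurred in 3 windows, and 2 of them were those of Nrarp and Pipox. By the placement described above, the centre of its Sox core lay 1.5 bp from the middle Sox2 position at Nrarp, and the centre of the whole composite 0.5 bp from it at Pipox. These are different centres. Measured from the centre of the whole composite at both genes, the median distance was 3 bp. Nrarp was the best-ranked promoter site and Pipox was number 4. The window of Gm38966, a gene outside the Sono-seq table, was the other. At Zfp428 an octamer and a Sox core stood apart within the stretch, with the nearer of them 13.5 bp from the Sox2 position, and at Psmd8 there were 3 cores. A match is a string of letters and not a measured contact.

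The strongest promoter site lay at Nrarp, which encodes an ankyrin-repeat feedback inhibitor of Notch signalling. Its positions on chromosome 2 (mm9, 25036201 to 25036231) were 46 bp from the start in the Chaf1a.166 list, 54 bp in Chaf1a.2122 and 76 bp in Renilla, all upstream. The authors' score, on which sites were ranked within each list with rank 1 as the best of the 11004 shared sites, was 340.1 in Chaf1a.166 (rank 4), 319.6 in Chaf1a.2122 (rank 5) and 300.0 in Renilla (rank 8). Nrarp was thus among the 10 best shared sites in every list.

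The next promoter sites also kept similar places in the 3 lists. At Otud7b, a deubiquitinase gene, the score was 225.3 in Chaf1a.166, 236.5 in Chaf1a.2122 and 231.1 in Renilla, with ranks of 24, 18 and 27 in that order, 509 to 520 bp from the start. At Mtf2, a Polycomb accessory subunit, it was 195.3 in Chaf1a.166, 174.7 in Chaf1a.2122 and 177.4 in Renilla, 145 to 169 bp upstream. Pipox, a peroxisomal oxidase of pipecolic acid and sarcosine, had 178.0 in Chaf1a.166, 177.6 in Chaf1a.2122 and 172.4 in Renilla, 180 to 195 bp upstream. None of the 4 best genes lay past rank 64 in any list.

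The other 8 of the 12 best promoter sites belonged to genes of varied function. Slc39a14, a zinc and manganese importer, scored 168.6 in Chaf1a.166, 149.6 in Chaf1a.2122 and 156.9 in Renilla at 660 to 669 bp. Dido1, a PHD-finger protein of chromatin, scored 147.1 in Chaf1a.166, 141.7 in Chaf1a.2122 and 174.0 in Renilla at 775 to 790 bp downstream of its start. Mobp, a myelin protein of oligodendrocytes, scored 146.2 in Chaf1a.166, 115.1 in Chaf1a.2122 and 107.8 in Renilla at 176 to 195 bp upstream. Mobp ranked better in both Chaf1a lists, at 131 in Chaf1a.166 and 249 in Chaf1a.2122, than in Renilla at 327, while Dido1 ranked better in Renilla.

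Rif1, which acts in replication timing and in repair of double-strand breaks, scored 123.3 in Chaf1a.166, 103.1 in Chaf1a.2122 and 110.1 in Renilla at 585 to 598 bp. Notch1, a Notch receptor, scored 99.0 in Chaf1a.166, 95.3 in Chaf1a.2122 and 119.9 in Renilla at 335 to 364 bp upstream. Tmbim1, a membrane protein of the Bax inhibitor family, scored 83.3 in Chaf1a.166, 102.7 in Chaf1a.2122 and 98.8 in Renilla at 616 to 658 bp upstream. Acot7, an acyl-CoA thioesterase, scored 74.5 in Chaf1a.166, 85.6 in Chaf1a.2122 and 104.0 in Renilla at 693 to 721 bp downstream. Tek, the angiopoietin receptor of endothelial cells, scored 91.8 in Chaf1a.166, 78.5 in Chaf1a.2122 and 72.2 in Renilla at 83 to 91 bp upstream. Of these 5, Notch1 and Acot7 had their best rank in Renilla and Tek its worst.

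The strong sites were exceptions among promoter sites. Over all 294 members the median score was 26.3 in Chaf1a.166, 24.6 in Chaf1a.2122 and 23.8 in Renilla, against lowest deposited scores of 14.8, 12.4 and 13.3 in those lists. Expressed as a percentage of the 11004 shared sites (0% being the best), the median rank of the members was 58.9% in Chaf1a.166, 60.9% in Chaf1a.2122 and 65.2% in Renilla. It was 49.7% in Chaf1a.166, 49.7% in Chaf1a.2122 and 49.6% in Renilla for the other 10710 shared sites. By median rank the members thus sat in the weaker part of each list. By mean rank, 6 of them were among the 100 best shared sites, 10 among the best 500 and 17 among the best 1000. Members are 2.67% of all shared sites, so their share was above this among the best 100 and below it among the best 500 and 1000. The scores chose the positions that entered the lists, so these places are a description.

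The authors' enrichment of immunoprecipitate over input had a lower median at the members than at other shared sites in each list, least so in Chaf1a.2122. Its median was 8.90 in Chaf1a.166, 9.53 in Chaf1a.2122 and 8.86 in Renilla at the members, against 9.81, 9.63 and 10.3 at the other shared sites of the same lists. The largest false discovery rate of a member was 0.00064 in Chaf1a.166, 0.00044 in Chaf1a.2122 and 0.00054 in Renilla.

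Sites next to a start were weaker than sites farther out. Within 250 bp of a start, 172 shared sites had a median rank of 62.0% in Chaf1a.166, 62.3% in Chaf1a.2122 and 69.2% in Renilla. Between 250 and 1000 bp, 122 sites had 54.9%, 58.4% and 60.7% in the same lists, and from 1 to 10 kb, 731 shared sites had 47.7%, 48.4% and 51.9%. Beyond 10 kb the median rank stayed between 48.8% and 51.1% in every list.

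**Figure D1:**
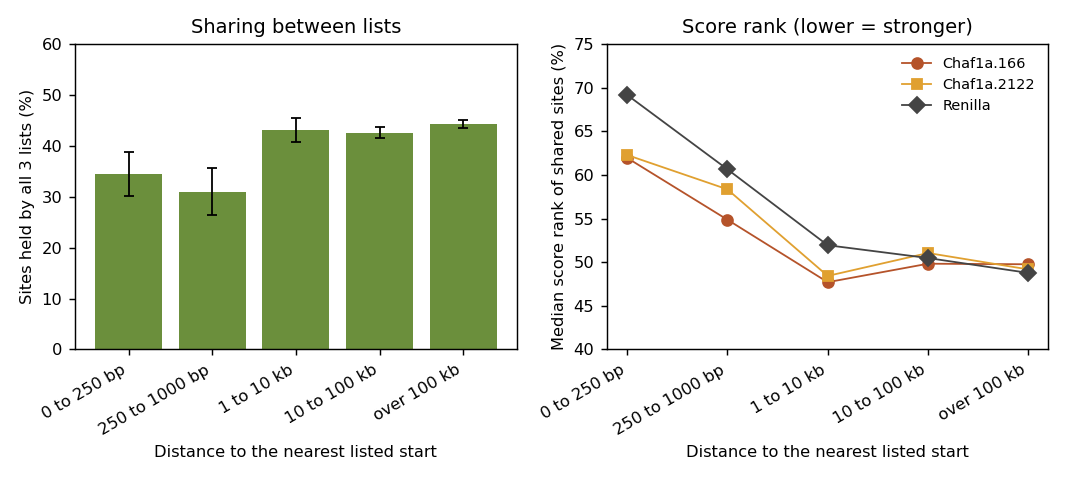
Left, the percentage of Sox2 sites held by all 3 lists by distance to the nearest listed start, with exact 95% intervals of counting error. Right, the median score rank of the shared sites in each list, as a percentage of all shared sites with lower values for stronger sites. Sharing was 34.4% within 250 bp and 43.1% from 1 to 10 kb, and the Renilla line is the highest of the 3 within 1 kb.

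Promoter sites were shared by the 3 lists less often in count than sites elsewhere. Of 895 sites within 1 kb of a start, 294 were shared (32.8%, exact 95% interval of counting error 29.8 to 36.0), against 43.6% (43.0 to 44.3) of the 24537 sites farther away. Among promoter positions, 57.8% (53.3 to 62.1) in Chaf1a.166, 47.1% (43.1 to 51.1) in Chaf1a.2122 and 55.4% (51.0 to 59.6) in Renilla lay in shared sites, against 69.8%, 57.5% and 62.6% of all other positions of those lists. Weighted to the score deciles of the promoter positions, the other positions had 63.3% in Chaf1a.166, 48.5% in Chaf1a.2122 and 53.0% in Renilla. The weighted value was above the interval of the promoter positions in Chaf1a.166 and inside it in Chaf1a.2122 and in Renilla.

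The remaining 601 promoter sites were spread over all classes. The Chaf1a.166 and Chaf1a.2122 lists alone shared 68 of them, Chaf1a.2122 and Renilla 71, and Chaf1a.166 and Renilla 42. A further 105 were held by Chaf1a.166, 191 by Chaf1a.2122 and 124 by Renilla only. As shares of promoter sites these were 11.7%, 21.3% and 13.9%, against 7.85%, 16.1% and 11.7% of all Sox2 sites. Chaf1a.2122 was thus the largest single-list class among all sites too. The pair of Chaf1a.2122 and Renilla held 7.93%, against 9.76% of all sites, and Chaf1a.166 and Renilla 4.69% against 4.63%. The share of the Chaf1a pair was above its 6.64% of all sites. Read depth is unknown, so a site missing from a list is one below that list's threshold.

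Sox2 lay close to the start and mostly upstream of it. The nearest position of a member was a median of 187 bp from the start (quartiles 77.3 and 529.8 bp), and 172 sites (58.5%, 52.6 to 64.2) had a position within 250 bp, 92 within 100 bp and 58 within 50 bp. Promoter sites of 1 or 2 lists had a median of 217 bp, with 54.6% within 250 bp. These sites draw on fewer lists, and the nearest of fewer positions tends to lie farther out, so the medians are not like for like. The direction of transcription was known from RefSeq for 234 members. Of these, 172 (73.5%) lay upstream and 62 downstream, with a median of -119 bp (negative being upstream). The 250 bases before the start held 116 sites, and the 250 bases after it held 22.

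**Figure D2:**
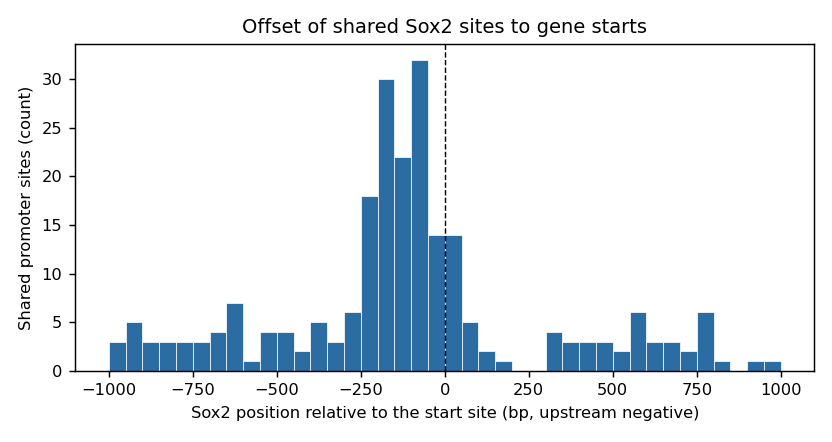
Count of shared promoter sites by the offset of the middle Sox2 position to the start site in bins of 50 bp, with upstream offsets negative, for members with a known strand. The sites gather in the 250 bp before the start, where 116 of 234 lie.

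The spread of the 3 positions within a site is limited by the joining distance and is given as a description. Each of the 294 sites held exactly 1 position per list, and a site spanned a median of 47 bp (quartiles 25 and 75, longest 326). Positions lay a median of 28 bp apart between Chaf1a.166 and Chaf1a.2122, 27 bp between Chaf1a.166 and Renilla and 26 bp between Chaf1a.2122 and Renilla. Scores of sites on either side of the 1 kb limit overlapped. Just inside it were Hbp1 at 969 bp, Magi1 at 981 bp and Tmem220 at 982 bp, with scores from 13.0 to 33.5. Just outside were the shared sites at Ubb (1001 bp), Frrs1 (1004 bp) and Id1 (1026 bp), with scores from 19.1 to 44.3.

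Several sites served more than 1 start. A shared site lay within 1 kb of several starts in 39 cases and of several genes in 25, of which 18 had the genes on opposite strands and 0 on the same strand, with a strand not known for the other 7. The best-ranked was the site between Trappc6a, a subunit of a vesicle tethering complex, and Bloc1s3, a subunit of a lysosome-related organelle complex. It scored 82.3 in Chaf1a.166, 59.6 in Chaf1a.2122 and 52.2 in Renilla, 80 to 94 bp from the nearer start. The others of the best 6 were C2cd3 with Ppme1, Ndufb9 with Tatdn1, 4933432B09Rik with Cby1, Rab30 with 4632427E13Rik, and Gm4532 with Zfp553. The nearest start was 67 to 233 bp away at these sites except at Ndufb9 and Tatdn1, where it was 856 bp away. A site between genes cannot be assigned to either of them from position.

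Conversely, 11 promoters had 2 separate shared sites. Acot7 had the strong downstream site above and another 49 to 262 bp from its start, which scored 24.7 in Chaf1a.166, 23.6 in Chaf1a.2122 and 22.4 in Renilla. Lpar6, a lysophosphatidic acid receptor, had a site 43 to 67 bp downstream with 51.1 in Chaf1a.166, 40.9 in Chaf1a.2122 and 36.8 in Renilla. Its other site, 664 to 688 bp downstream, had 18.2, 16.6 and 27.8 in those lists. By rank the first site of Lpar6 stood better in both Chaf1a lists (2049 in Chaf1a.166, 2886 in Chaf1a.2122 and 3707 in Renilla), and the other stood better in Renilla (9630 in Chaf1a.166, 9698 in Chaf1a.2122 and 5821 in Renilla). Magi1, a junction scaffold, Hist1h4j, a histone gene, and Malat1, a nuclear non-coding RNA, also had 2 sites.

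Members had a neighbouring shared site about as often as other shared sites did. Another shared site lay within 10 kb of 71 members (24.1%), against 23.4% of the other shared sites. No member lay within 500 bp of an enhancer of the Sono-seq table. Of the 326 member promoters, 37 (11.3%, 8.12 to 15.3) had a further shared Sox2 site at an enhancer assigned to them, against 8.68% (7.92 to 9.47) of the other 5187 promoters, with a median of 3 assigned enhancers in both sets.

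Scores in the Chaf1a lists and in Renilla were compared by rank among the same 11004 shared sites, so that list length had no part. The ranks of the members in each pair of lists had Spearman coefficients of 0.655 (Chaf1a.166 and Chaf1a.2122), 0.641 (Chaf1a.166 and Renilla) and 0.720 (Chaf1a.2122 and Renilla) over 294 sites, as a description of sites that share these libraries. Over all shared sites the coefficients were 0.778, 0.756 and 0.783. Each coefficient was lower over the members than over all shared sites.

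By score rank, more members stood better in both Chaf1a lists than stood worse in both. Ranked better in both Chaf1a lists than in Renilla were 109 members (37.1%, against 33.3% of all shared sites), and ranked worse in both were 77 (26.2%, against 33.9%). The median difference in rank was -3.41 percentage points for Chaf1a.166 minus Renilla and -0.59 for Chaf1a.2122 minus Renilla, where negative means a better place in the Chaf1a list. Over all shared sites it was 0.045 for either hairpin, so the Chaf1a.2122 median was close to that background. In Chaf1a.166, 172 members were better and 122 worse, and in Chaf1a.2122, 154 were better and 139 worse. The pattern was not particular to promoters, since 36.8% of the 731 shared sites from 1 to 10 kb ranked better in both Chaf1a lists and 30.2% worse. Among the members it was 40.7% better and 25% worse within 250 bp of a start, and 32.0% better and 27.9% worse between 250 and 1000 bp. By enrichment over input the shares were 33.0% (97 members, against 33.3% of all shared sites) and 30.6% (90 members, against 33.3%), so over all members the better places were not seen on that measure. The split by distance was also reversed on it. Within 250 bp of a start 28.5% ranked better by enrichment and 30.8% worse, and between 250 and 1000 bp 39.3% better and 30.3% worse. Both comparisons share the Renilla library.

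**Figure D3:**
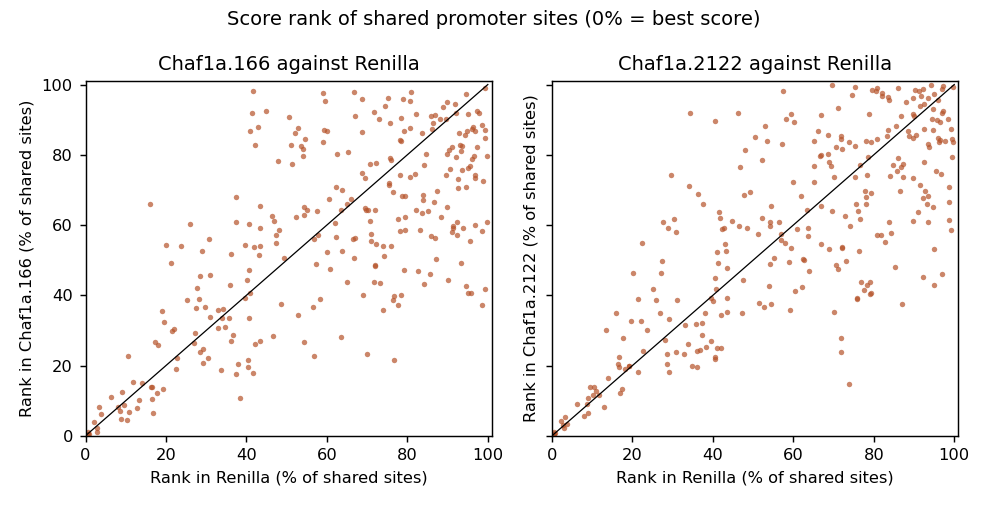
Score rank of each of the 294 members in the Chaf1a.166 list (left) and the Chaf1a.2122 list (right) against its rank in the Renilla list, as a percentage of the 11004 shared sites with 0% as the best score. Points under the diagonal are placed better in the Chaf1a list, which holds for 172 members in the left panel and 154 in the right. Over all shared sites the median difference in rank was 0.045 percentage points for either hairpin.

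The members that gained the most places in both Chaf1a lists were weak in Renilla, which a choice by gain in rank favours. Btg1, an antiproliferative gene, scored 33.7 in Chaf1a.166, 27.0 in Chaf1a.2122 and 15.0 in Renilla, which are ranks 4471, 5855 and 10460. T2 had ranks of 4594 in Chaf1a.166, 6452 in Chaf1a.2122 and 10923 in Renilla. At Paip2b, an inhibitor of the poly(A)-binding protein, the score was 36.2 in Chaf1a.166, 54.1 in Chaf1a.2122 and 21.2 in Renilla. Stat3, the transcription factor downstream of LIF, had 35.5 in Chaf1a.166, 24.3 in Chaf1a.2122 and 13.8 in Renilla, 196 to 248 bp upstream of its start. Tmem184b had 35.5 in Chaf1a.166, 31.9 in Chaf1a.2122 and 20.0 in Renilla. Sites chosen as extremes of 1 library per hairpin include those that are extreme by counting error.

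In the other direction, Pgls, an enzyme of the pentose phosphate pathway, scored 17.3 in Chaf1a.166, 17.4 in Chaf1a.2122 and 28.7 in Renilla. The second site of Lpar6, given above, was next. Myadm, a membrane protein of myeloid differentiation, had 16.1 in Chaf1a.166, 15.5 in Chaf1a.2122 and 25.5 in Renilla. Mett10d, an RNA methyltransferase gene, had 19.5 in Chaf1a.166, 17.8 in Chaf1a.2122 and 27.6 in Renilla. Ylpm1 had 23.5 in Chaf1a.166, 22.9 in Chaf1a.2122 and 34.4 in Renilla. Except at Ylpm1, all of these Chaf1a scores were below 20, not far above the lowest score of their lists, which a choice by loss in rank favours.

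The Notch pathway was the best represented of the signalling lists. Of its 14 genes in the table, 4 had a shared promoter site (28.6%, 8.39 to 58.1), against 5.98% of all listed genes. Beside Nrarp and Notch1 these were Notch2, another receptor, and Jag1, a ligand. At Notch2 the score was 59.2 in Chaf1a.166, 46.3 in Chaf1a.2122 and 53.2 in Renilla, 786 bp or more upstream. At Jag1 it was 63.0 in Chaf1a.166, 39.8 in Chaf1a.2122 and 50.9 in Renilla, 231 to 254 bp upstream. All 4 stood among the 31 best of the 294 members, and none was placed better in both Chaf1a lists than in Renilla except Nrarp. The interval is wide because the list is short. The gene lists were chosen with earlier results of these data known, and list members were not tested against other genes.

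Other signalling genes were Spry4 and Spred2, inhibitors of receptor tyrosine kinase signalling, Fzd2, a Wnt receptor, and Smad6, an inhibitor of BMP signalling, which are 4 of 32 genes of the FGF, TGF-beta, BMP and Wnt list (12.5%). Spry4 scored 59.8 in Chaf1a.166, 46.9 in Chaf1a.2122 and 49.1 in Renilla, while Fzd2 had 25.8, 30.1 and 15.9 in those lists. Smad6 had its position 6 bp from the start in the nearest list, with 23.8 in Chaf1a.166, 14.1 in Chaf1a.2122 and 18.3 in Renilla. Spred2 had 17.0 in Chaf1a.166, 13.9 in Chaf1a.2122 and 18.8 in Renilla. Of immediate early genes, 3 of 18 (16.7%) had a site, namely Dusp6, a phosphatase of ERK kinases, Btg1, and Fos, an AP-1 subunit with 22.4 in Chaf1a.166, 18.0 in Chaf1a.2122 and 20.8 in Renilla. Stat3 was the 1 of 12 interferon and NF-kB genes (8.33%).

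Pluripotency genes with a promoter site were Rif1, Fbxo15, Upp1, Trim28 and Lin28b, 5 of 33 (15.2%, 5.11 to 31.9). Fbxo15, an F-box gene active in ES cells, scored 49.8 in Chaf1a.166, 44.9 in Chaf1a.2122 and 32.8 in Renilla, 530 bp or more from its start. Upp1, a uridine phosphorylase, had 45.9 in Chaf1a.166, 20.7 in Chaf1a.2122 and 22.3 in Renilla. Trim28, a corepressor of zinc finger proteins, had 19.5 in Chaf1a.166, 25.6 in Chaf1a.2122 and 28.4 in Renilla. Lin28b, an inhibitor of let-7 maturation, had 15.5 in Chaf1a.166, 28.5 in Chaf1a.2122 and 25.7 in Renilla. By rank, the Chaf1a lists stood on opposite sides of Renilla at Rif1, Upp1 and Lin28b. Fbxo15 ranked better in both Chaf1a lists and Trim28 worse in both.

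Somatic genes were few in a table of ES cell promoters. Fibroblast genes had 2 of 6 (33.3%, 4.33 to 77.7), Fn1 for fibronectin and Ctgf, a matricellular growth factor. Fn1 scored 19.2 in Chaf1a.166, 34.8 in Chaf1a.2122 and 25.7 in Renilla, and Ctgf 16.0, 30.8 and 19.7 in those lists. Of the neural genes of Sox2's own lineage, 0 of 4 in the table had a site (exact upper bound 60.2%).

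Histone genes and RNA splicing genes had shares above the 5.98% of all listed genes by count, without a test. Of 60 histone genes, 10 had a shared site (16.7%, 8.29 to 28.5), led by Hist1h4j, Hist1h3i and the pair Hist1h2bh and Hist1h3f, which share their sites. Histone genes are near-identical copies in clusters, so reads can be split among them and their members are not separate cases. At Hist1h3i the score was 37.6 in Chaf1a.166, 37.0 in Chaf1a.2122 and 35.5 in Renilla, and at Hist1h4h it was 27.9, 26.9 and 21.7 in those lists. RNA splicing and processing genes had 11 of 71 (15.5%, 8.00 to 26.0), led by Cpsf4l, Rbm25 and Dhx38, and 5 of the 11 were Hnrnp genes, which encode pre-mRNA binding proteins. Chromatin regulators had 4 of 40 (10.0%, 2.79 to 23.7, an interval that holds the share of all genes), Hmgb1, Trim28, Cbx3 and Cbx1. Hmgb1, an abundant DNA-bending protein, was the strongest of them with 75.7 in Chaf1a.166, 70.7 in Chaf1a.2122 and 59.7 in Renilla, 53 bp from its start. Of 9 chromatin assembly genes 1 had a site (11.1%, 0.281 to 48.2), Rbbp4, which encodes a histone-binding subunit of CAF-1 itself. It scored 31.3 in Chaf1a.166, 16.6 in Chaf1a.2122 and 17.8 in Renilla and shares its site with Zbtb8os.

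The remaining lists lay near the share of all genes. Cell cycle and replication genes had 2 of 35 (5.71%), Mcm3, a helicase subunit, and Mad2l1, of the spindle checkpoint. Zinc finger genes had 9 of 114 (7.89%, led by Zfp62, Zfp428 and Zscan10), mitochondrial genes 5 of 72 (6.94%, led by Ndufb9, Mrps10 and Mrpl51), and translation factors and tRNA synthetases 3 of 46 (6.52%, Eif1ad, Eef2k and Yars2). Vesicle trafficking genes had 5 of 77 (6.49%, led by Trappc6a, Rab30 and Vamp1), solute carriers 5 of 93 (5.38%, led by Slc39a14, Slc4a11 and Slc1a5) and ubiquitin and proteasome genes 6 of 112 (5.36%, led by Fbxo15, Psmd8 and Usp43). Cytosolic ribosomal proteins had 2 of 50 (4.00%, Rps26 and Rps19) and genes named as small RNAs, their hosts or 1 of a few long non-coding RNAs 2 of 87 (2.30%), Snora16a and Snord99, at a single site. The names searched do not include other long non-coding members such as Malat1 and Neat1.

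Letters in the promoter windows, which the choice of members did not use, differed with the place of Sox2. A single RefSeq window from 250 bases before to 50 after the start was available for 180 member promoters, with the middle Sox2 position inside it for 104 and outside for 76. Any of the 3 Sox cores was found in 62 of the 104 windows that hold the Sox2 position (59.6%, 49.5 to 69.1). The share was 22.4% (13.6 to 33.4) in the 76 windows that do not, 20.0% (18.6 to 21.5) in the windows of 3056 other genes of the table and 34.3% in all 22862 genes. With ACAATG and ACAAAG alone, since AACAAT was added after the letters were seen, the shares were 49.0%, 19.7%, 17.7% and 29.4% for those sets. The core AACAAT overlapped one of the others in 7 of the 104 windows.

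Cores, where present, mostly lay near the Sox2 position. In the 62 windows the nearest core was a median of 16 bp from the middle Sox2 position, and in 46 it was within 30 bp. With ACAATG and ACAAAG alone, the nearest core was a median of 17.5 bp away in 51 windows, and within 30 bp in 35. The shares by GC content below count all 3 cores, with AACAAT added after the letters were seen. The windows with the Sox2 position had a median GC content of 57.0%, against 60.5% in member windows without it and 62.0% in those of other genes. The sets thus differed in base composition as well as in the share of cores. Within windows of 60% GC or more, the share with a core was 71.1% (27 of 38, 54.1 to 84.6) with the Sox2 position inside, against 17.1% (7 of 41) with it outside and 14.9% (284 of 1900) in other genes. From 50% to 60% GC the shares were 53.1% (26 of 49), 19.05% (4 of 21) and 24.9% (227 of 912), and below 50% GC they were 52.9% (9 of 17), 42.9% (6 of 14) and 41.4% (101 of 244). The difference was thus largest at 60% GC or more and smallest below 50%.

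**Figure D4:**
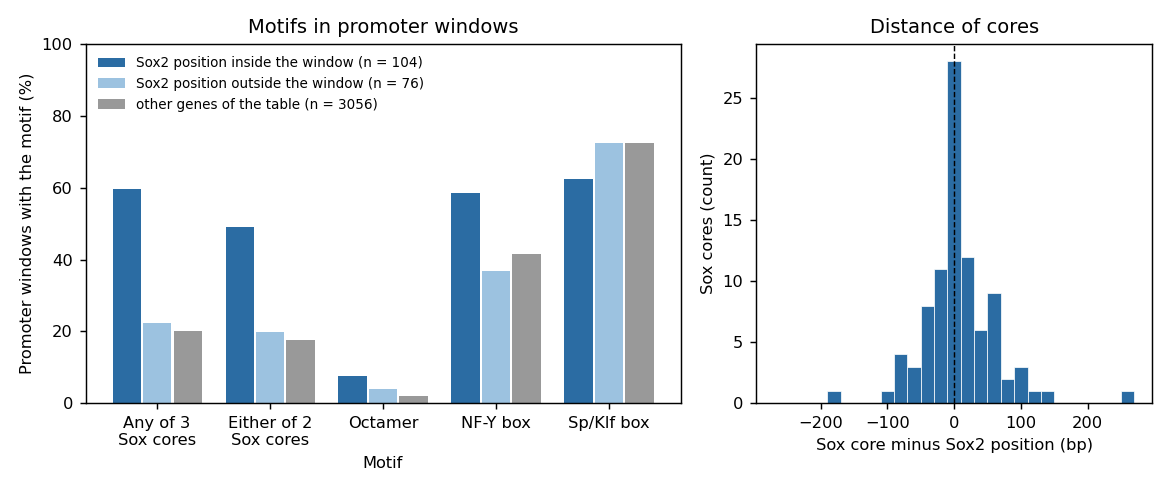
Left, percentage of promoter windows with each motif, for members with the Sox2 position inside the window, members with it outside, and other genes of the table. Right, distance of each Sox core to the middle Sox2 position in bp, in bins of 20 bp, for the members with the position inside. Any of the 3 Sox cores was in 59.6% of the first set and 20.0% of the last, and the cores gather at distance 0.

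Other elements were searched on both strands in the same windows. The octamer was in 7.69% of the 104 windows, against 1.90% of other genes, and CCAAT, the NF-Y element, in 58.7% against 41.6%. CCAAT overlapped a Sox core in 0 of the member windows, but such overlap was rare elsewhere too (2 of 3056 windows of other genes). The nearest CCAAT was a median of 51 bp from the Sox2 position, farther than the nearest core. GGGCGG, the Sp element, was in 62.5% against 72.5%, and CCGGAAG, the ETS element, in 13.5% against 20.8%. The shares were 14.4% against 10.6% for CACGTG (E-box), 5.77% against 4.65% for TGANTCA (AP-1), 3.85% against 3.57% for TGACGTCA (CRE), 9.62% against 7.43% for TATAAA and 3.85% against 3.83% for GGGTGTGG (Klf). Over all 22862 genes the octamer was in 1.82%, CCAAT in 38.2%, GGGCGG in 35.2%, CCGGAAG in 9.12%, CACGTG in 7.12%, TGANTCA in 7.98%, TGACGTCA in 1.85%, TATAAA in 14.8% and GGGTGTGG in 3.58%.

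Members with any Sox core in the window, AACAAT included, were also the better ranked. These 62 had a median place of 124.5 among the 294 members, against 201 for the 42 without. Their median Sono-seq log2 ratio was -0.03 (CAF-1 over Renilla), against -0.01. The core AACAAT was added after the letters were seen, and the best-ranked stretches of Nrarp, Tek and Pde12 carry it. The choice of cores is therefore not independent of rank, and the difference in place is a description. Places were not compared with ACAATG and ACAAAG alone.

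Sono-seq, in which sheared cross-linked chromatin is sequenced without an antibody and open regions break and yield more fragments, gave like levels in both conditions at the member promoters. The median value, in the authors' unstated unit, was 0.139 in CAF-1 knockdown and 0.140 in Renilla at the 326 member promoters, against 0.141 and 0.143 in those conditions at all 5513 promoters. Taken as CAF-1 over Renilla, the log2 ratio had a median of -0.0039 (95% interval over promoters -0.048 to 0.033) at the members and -0.0093 (-0.017 to -0.0026) at all promoters. The interval treats promoters as independent and does not cover the spread between libraries. The CAF-1 value was at least 25% above the Renilla value at 25 members (7.67%, against 6.68% of all promoters), and the Renilla value at least 25% above the CAF-1 value at 32 (9.82%, against 8.98%). These shares are near the background.

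**Figure D5:**
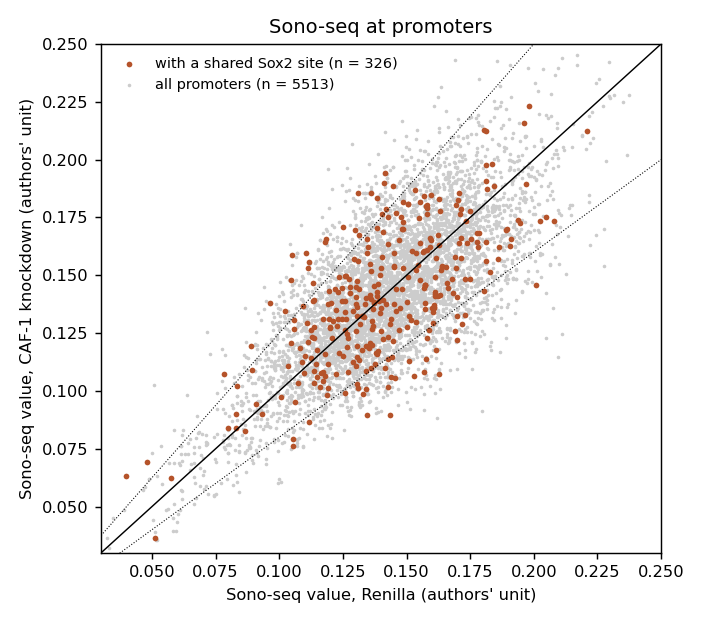
Sono-seq value in CAF-1 knockdown against Renilla for the 326 promoters with a shared Sox2 site, drawn over all 5513 promoters, in the authors' unit. The solid line is equality, the dotted lines mark where either value is 25% above the other, and 15 promoters lie beyond the axes. The member promoters lie along the same diagonal cloud as the rest.

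Single promoters differed in both directions. Among members above the median level of all promoters, the value at Banp, a nuclear DNA-binding protein gene, was 0.185 in CAF-1 and 0.131 in Renilla (1.42-fold). Wipi2, of autophagosome formation, had 0.194 in CAF-1 and 0.142 in Renilla, and Jag1 had 0.171 and 0.125 (1.37-fold). Ptpn14, a tyrosine phosphatase, had 0.186 in CAF-1 and 0.136 in Renilla, and 3200002M19Rik had 0.190 and 0.141. The Notch genes did not go one way, since Notch2 had 0.155 in CAF-1 and 0.136 in Renilla, Notch1 0.163 and 0.191, and Nrarp 0.126 and 0.140.

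The lowest ratios above the median level were those of Yars2, the mitochondrial tyrosyl-tRNA synthetase, with 0.122 in CAF-1 and 0.170 in Renilla, and Atxn7l2 with 0.146 and 0.201. Smarcal1, an annealing helicase of stalled forks, had 0.126 in CAF-1 and 0.169 in Renilla, with its Sox2 positions 10 to 58 bp from the start. Gipc1, an adaptor of membrane traffic, had 0.129 in CAF-1 and 0.172 in Renilla, and Laptm4a, a lysosomal membrane protein, 0.133 and 0.173. Over all members the log2 ratio ran from -0.68 at Trip12, a ubiquitin ligase (0.0895 in CAF-1 and 0.144 in Renilla), to 0.67 at Hist1h3f (0.0631 in CAF-1 and 0.0398 in Renilla), both below the median level. Fbxo36, which shares the site of Trip12, had -0.59, and Hist1h2bh, which shares that of Hist1h3f, had 0.53. The promoters of each of these pairs had ratios of the same sign.

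Neither the distance of Sox2 nor its change in rank set the Sono-seq values apart by much. The median log2 ratio was 0.0030 (-0.043 to 0.052) at the 186 member promoters with Sox2 within 250 bp and -0.022 (-0.109 to 0.033) at the 140 with Sox2 farther out. It was 0.060 (-0.049 to 0.0996) at 127 promoters whose site was better placed in both Chaf1a lists and -0.015 (-0.085 to 0.040) at 85 whose site was worse placed. These intervals overlap. The Spearman coefficient between gain in rank and log2 ratio was 0.104 over 294 sites, a weak description across sites of the same libraries.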

How the data were processed

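Sox2 ChIP-seq gave 1 deposited list of binding positions per hairpin, each from 1 immunoprecipitate against its input, per the labels. The build was mm9, and the submitters' processing notes list BWA 0.7.8 and Bowtie, giving neither a task. The peak caller was not given in the sources used here. The columns that rank a deposited position, per the file headers, are a score, a false discovery rate (q-value) and an enrichment ratio over input. All are values of the authors. Scores are printed for each list, and lists are compared only by rank among the shared sites. The lists hold 15888 (Chaf1a.166), 19319 (Chaf1a.2122) and 17681 (Renilla) positions of unknown read depth. The deposited Sono-seq table holds 1 value per condition, treated as a score because the authors' unit, scaling and merging of 3 libraries are not given in the sources used here. The limma test planned for single libraries was therefore not made.

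Sites were built with Python 3.11.15, numpy 2.4.6, pandas 2.3.3 and scipy 1.17.1, and the joining was tested on simulated lists. Shares have exact Clopper-Pearson intervals and medians order-statistic intervals, at 95%, of counting error only. Gene symbols turned into dates (136 of 22594 table rows) were restored through RefSeq transcripts of GRCm38.p6, a table also used for strands and promoter windows, and 260 of the 326 member promoters matched it. Motifs were searched on both strands.

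The members and the 21 gene lists were chosen with earlier results of these data known. The result of 1 of these lists is not reported here. Named genes are the 12 sites of best mean rank, the 5 highest and 5 lowest Sono-seq ratios above the median level, the 5 sites most raised and 5 most lowered in both Chaf1a lists, listed genes (the 3 best of lists made by name pattern), the 6 best sites with several genes, 3 sites on either side of 1 kb and 5 promoters with most sites. Other genes were named after their values were seen. Alternatives were other distances, thresholds, list lengths, left-out lists and Sono-seq scalings.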

Additional observations from a re-analysis of the deposited data

How the results depend on the processing

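Of 65 alternative values, 54 stayed within range of the reported one (counts within 1.5-fold, shares and medians within their interval). An enrichment lower bound of at least 2 left 134 shared promoter sites at 147 promoters and 24.2% of promoter sites shared. Without the Chaf1a.166, Chaf1a.2122 or Renilla list, 46.1%, 47.5% and 46.6% of promoter sites were held by both remaining lists, which fewer lists make easier. The share of sites within 250 bp was 80.8% with a limit of 500 bp and 40.95% with 2 kb, as the limit itself sets. Above the median Sono-seq level, 11 member promoters were at least 25% higher in CAF-1 and 8 in Renilla, of fewer promoters (149). These were 7.38% and 5.37%, near the 6.64% and 6.28% of all 2756 promoters above that level. The share of member windows with either of the first Sox cores was 36.7% over all 180 and 49.0% where the window holds the Sox2 position. The third core and the other distances for gene lists were added after seeing the data. No paired analysis was possible because each hairpin has 1 Sox2 list and each condition 1 Sono-seq value. Depth behind the lists is unknown, so absence from a list limits every sharing count.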
